A study of Mus musculus with 42 samples.

Results

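The genes described here are 38 genes of fatty acid uptake and oxidation, chosen by symbol from the 13809 genes of the deposited table, in which each of them appears once. They are 5 genes of uptake and binding, 7 of activation and the carnitine shuttle, 12 of mitochondrial beta-oxidation, 3 of the electron transfer flavoprotein system, 2 acyl-CoA thioesterases, 4 of lipid droplets, lipolysis and desaturation, 3 of the fuel switch and uncoupling, and 2 nuclear receptors. Their mRNA was measured by RNAseq in TA (tibialis anterior) muscles of 4-month-old male C57BL/6J mice, 42 libraries in 11 groups and 2 sets. Set 1 holds WT, Sesn1SkM-Tg and Sesn2SkM-Tg mice, analysed as basal muscle or after hindlimb immobilization with a rigid support. Sesn1SkM-Tg mice carry human Sesn1 driven by the MCK promoter of muscle creatine kinase. Of the lines used here, the paper's methods give the C57BL/6J background for Sesn1SkM-Tg mice only. Sesn2SkM-Tg mice combine Tet-regulated Sesn2 with an MCK-driven tTA. The paper used non-transgenic littermates as controls of each line, while the labels give a single WT group in set 1. Set 2 holds WT and Sesn1-/- mice in the same 2 states, and WT mice after a segment of the sciatic nerve was removed (denervation). The sample labels give no day of disuse. The paper's material gives day 3 for the denervated transcriptome and for the immobilized muscle of every genotype. Each group has 4 libraries, except 3 for immobilized WT muscle of set 1 and 3 for immobilized Sesn1SkM-Tg muscle. Basal muscles came from mice that were neither immobilized nor denervated. Whether a library is 1 animal is not stated in the sources used here, so p-values measure the spread between libraries. The study asked how Sestrins, stress-inducible proteins with metabolic functions, bear on the loss of disused muscle, and the genes here cover a fuel pathway of that muscle.

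A muscle fibre takes up fatty acids that lipoprotein lipase (Lpl) releases from circulating triglycerides and that CD36 and FATP1 (Slc27a1) help to bring across the membrane. Inside the fibre they are bound by FABP3, activated to acyl-CoA, exchanged onto carnitine by CPT1 and carried into the mitochondrion, where each round of beta-oxidation shortens the chain and passes electrons to the electron transfer flavoprotein. Malonyl-CoA, made by acetyl-CoA carboxylase beta (Acacb) and removed by malonyl-CoA decarboxylase (Mlycd), inhibits CPT1. PDK4 inactivates pyruvate dehydrogenase and thereby spares glucose when fat is burned. The receptors PPAR alpha (Ppara) and PPAR delta (Ppard) are known activators of many of these genes.

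The deposited values are normalized counts, and those of a library summed to between 722430 and 1276769, with the lowest sum in a denervated library. The number of reads is unknown, so no counting error is given. Sesn1 was at 8.41 to 10.05 in basal Sesn1-/- muscle against 22.5 to 29.7 in basal WT muscle of set 2, and at 19.4 to 37.3 against 30.7 to 53.1 after immobilization, where the library labelled Sesn1-/- immobilized replicate 1 lay in the WT range. Without that library, 25 of the 38 genes were called in immobilized against basal Sesn1-/- muscle, as many as with it. Sesn1 was at 23.0 to 77.6 in Sesn1SkM-Tg muscle against 12.4 to 22.1 in WT muscle of set 1, and Sesn2 at 6.54 to 14.5 in Sesn2SkM-Tg muscle against 1.86 to 3.39. The 8 skeletal fibre markers (Ckm, Acta1 and others) summed to 52560 to 159000 in every library, and the adipocyte markers to at most 51.1. In whole muscle, fewer cells of a type and less RNA per cell cannot be told apart.

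Levels of different genes were compared as normalized counts per kb of exon in basal WT muscle. Fabp3 had the highest level of the 38 genes, 425.5 per kb in set 1 and 426.3 in set 2. Pdk4 followed in set 1 at 277.4 per kb but ranked 6 in set 2 at 109.2. The dehydrogenases for very long and long chains, Acadvl (168 and 158 per kb) and Acadl (146 and 152), and the flavoprotein subunit Etfb (144 and 139) came next. Angptl4, which encodes a secreted inhibitor of lipoprotein lipase, had the lowest level (0.884 and 0.226 per kb). The next lowest were Cpt1a, the liver-type CPT1 (1.11 and 1.06), and Ucp2 (1.32 and 1.4).

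Promoter sequences from RefSeq (GRCm38.p6, the 250 bases before a transcript start) were given for 31 of the 38 genes, and were searched on both strands for the hexamer AGGTCA and for its direct repeat with 1 free base between the copies (DR1), letters that PPARs and related receptors are known to bind. The hexamer was in a promoter of 7 of the 31 (Cd36, Cpt1a, Acadm, Acadvl, Echs1, Plin2 and Ucp3; 22.6%), against 15.8% of all 27025 genes with a promoter. DR1 was in 0 of 31, against 0.0407% of all genes. An extended form of the hexamer, TNAAGGTCA with N for any base, was searched as well. It was in 0 of 31, against 1.3% of all genes. The promoters of 3 genes are printed 5′ to 3′ along the gene's strand, with the hexamer or its reverse complement (TGACCT) in capitals, because genes with the same letters changed in different directions: Acadm was called lower in every disuse comparison, Ucp3 was called both ways, and Plin2 was called higher after denervation. They are at chr3:153944644-153944893 on the minus strand (Acadm, medium-chain acyl-CoA dehydrogenase), chr7:100472741-100472990 on the plus strand (Ucp3, uncoupling protein 3) and chr4:86670060-86670309 on the minus strand (Plin2, a lipid droplet coat protein). A match is a description of the letters, not a binding site.
Acadm: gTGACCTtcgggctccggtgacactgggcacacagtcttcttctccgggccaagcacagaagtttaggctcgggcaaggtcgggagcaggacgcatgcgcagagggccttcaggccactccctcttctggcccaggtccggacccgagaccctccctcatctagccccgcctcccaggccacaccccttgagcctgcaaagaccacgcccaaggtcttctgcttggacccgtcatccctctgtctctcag
Ucp3: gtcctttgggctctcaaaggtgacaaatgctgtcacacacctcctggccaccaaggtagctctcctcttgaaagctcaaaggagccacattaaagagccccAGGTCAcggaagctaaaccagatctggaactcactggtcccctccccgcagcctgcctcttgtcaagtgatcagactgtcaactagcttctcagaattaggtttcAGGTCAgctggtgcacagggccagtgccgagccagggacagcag
Plin2: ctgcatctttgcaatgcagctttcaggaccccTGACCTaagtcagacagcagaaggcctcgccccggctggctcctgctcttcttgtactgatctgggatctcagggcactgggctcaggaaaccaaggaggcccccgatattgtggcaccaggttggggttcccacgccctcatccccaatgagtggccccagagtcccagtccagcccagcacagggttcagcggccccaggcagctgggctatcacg

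After denervation most of the pathway fell. Of the 38 genes, 28 were lower and 5 higher than in basal WT muscle, a share of 86.8% called against 55.5% of all 13629 genes tested. The 28 lower genes are 73.7% of the 38, against 27.7% of all genes, and the 5 higher ones 13.2% against 27.8%. A gene was called where the Benjamini-Hochberg adjusted p of limma's test was under 0.05 and the absolute log2 fold change at least 0.25, on log2(value + 1), a scale that understates the change of low genes such as Angptl4. The median log2 fold change of the 38 was -0.86 (all genes -0.03). The largest decreases were in Lpl, Fabp3, Ppara, Acaa2, Cpt1b and Slc27a1, and the largest increase in Angptl4. The 8 skeletal fibre markers were lower as well, all 8 called, and their summed level was 52560 to 70230 in denervated against 131500 to 144300 in basal muscle; the part of this in the result was not tested. Where each library was instead scaled to the same sum, the median of all genes rose by 0.37, and 7 of the 38 were higher and 21 lower. The medians of the 38 and of all genes were then -0.41 and 0.35. The share of all genes called at that scaling is not given here.

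Immobilization lowered fewer of the genes and by less. In WT muscle of set 1, 3 were called higher and 16 lower (50% called, against 29.3% of 13705 genes, 14.9% higher and 14.5% lower), with a median log2 fold change of -0.52. For WT muscle of set 2, 6 were higher and 21 lower (71.1% against 33.9%, 16.2% higher and 17.7% lower), with a median of -0.41. In Sesn1SkM-Tg muscle 3 were higher and 16 lower (50% against 34.7%, 18.2% higher and 16.5% lower), with a median of -0.46. In Sesn2SkM-Tg muscle 8 were higher and 11 lower (50% against 30.7%, 15% higher and 15.7% lower), with a median of -0.15. In Sesn1-/- muscle 6 were higher and 19 lower (65.8% against 37.1%, 17.2% higher and 19.9% lower), with a median of -0.38. The median of all genes lay between -0.03 and 0.00 in these comparisons. The 5 immobilization comparisons share no library. The summed level of the 8 fibre markers went from 119800 to 148500 in basal to 77490 to 94970 in immobilized WT muscle of set 1 (4 of 8 called lower), from 125000 to 128900 to 74310 to 108000 in Sesn1SkM-Tg muscle (4 of 8) and from 140600 to 159000 to 72350 to 99610 in Sesn2SkM-Tg muscle (5 of 8), and from 131500 to 144300 to 119000 to 128100 in WT muscle of set 2 (2 lower, 1 higher). In Sesn1-/- muscle the ranges overlapped (121200 to 142900 and 97590 to 140400, 2 called lower). Of 7 macrophage markers, 7 (WT, set 1), 7 (Sesn1SkM-Tg), 3 (Sesn2SkM-Tg), 3 (WT, set 2) and 1 (Sesn1-/-) were called higher. The part of either in the counts was not tested. In all 5, 10 of the 38 genes (26.3%) were called lower, against 5.69% of the 13571 genes tested in both sets, namely Slc27a1, Cpt1b, Cpt2, Acadm, Acads, Hadha, Acaa2, Decr1, Etfdh and Acot13. Angptl4, Cpt1a and Ucp2 were called higher in all 5 (7.89%, against 3.13%). Fabp3, Slc25a20, Mlycd, Acadl, Lipe and Plin2 were called in 0 of the 5 (15.8%, against 32%), and these 6 were called after denervation. Cpt1b and Acadm kept the call in all 5 comparisons without any single library. Among the 10, the call of Acaa2 in Sesn2SkM-Tg muscle was lost without any of 5 single libraries (-0.60, adjusted p 0.14, without basal replicate 2), with quantile normalization (-0.77, adjusted p 0.054) and with libraries scaled to the same sum (-0.58, adjusted p 0.11), and in WT muscle of set 1 without immobilized replicate 3 (-1.06, adjusted p 0.075). Etfdh in Sesn2SkM-Tg muscle lost it without basal replicate 2 (-0.40, adjusted p 0.071) or immobilized replicate 2 (-0.45, adjusted p 0.081). In Sesn1SkM-Tg muscle, which has 3 immobilized libraries, the calls fell from 19 to 8 without immobilized replicate 3 (among the genes lost, Acaa2 at -0.88 and Ppara at -0.87), and Hadha was lost without basal replicate 4 (-0.51, adjusted p 0.054). With every library scaled to the same sum, the median of all genes rose by 0.27 (WT, set 1), 0.26 (Sesn1SkM-Tg), 0.25 (Sesn2SkM-Tg), 0.10 (WT, set 2) and 0.09 (Sesn1-/-), and the split of higher and lower calls changed from 3 and 16 to 6 and 12 in WT muscle of set 1, from 3 and 16 to 5 and 8 in Sesn1SkM-Tg muscle and from 8 and 11 to 12 and 5 in Sesn2SkM-Tg muscle. With quantile normalization it was 5 and 11 in Sesn1SkM-Tg and 10 and 8 in Sesn2SkM-Tg muscle. The shares of all genes called under these scalings are not given here. At the same sum, the medians of the 38 and of all genes were -0.18 and 0.28 (WT, set 1), -0.16 and 0.25 (Sesn1SkM-Tg) and 0.15 and 0.26 (Sesn2SkM-Tg). With quantile normalization they were -0.31 and -0.05 in Sesn1SkM-Tg and -0.08 and 0.00 in Sesn2SkM-Tg muscle. The heat map of the 38 genes shows these changes by role.

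**Figure D1:**
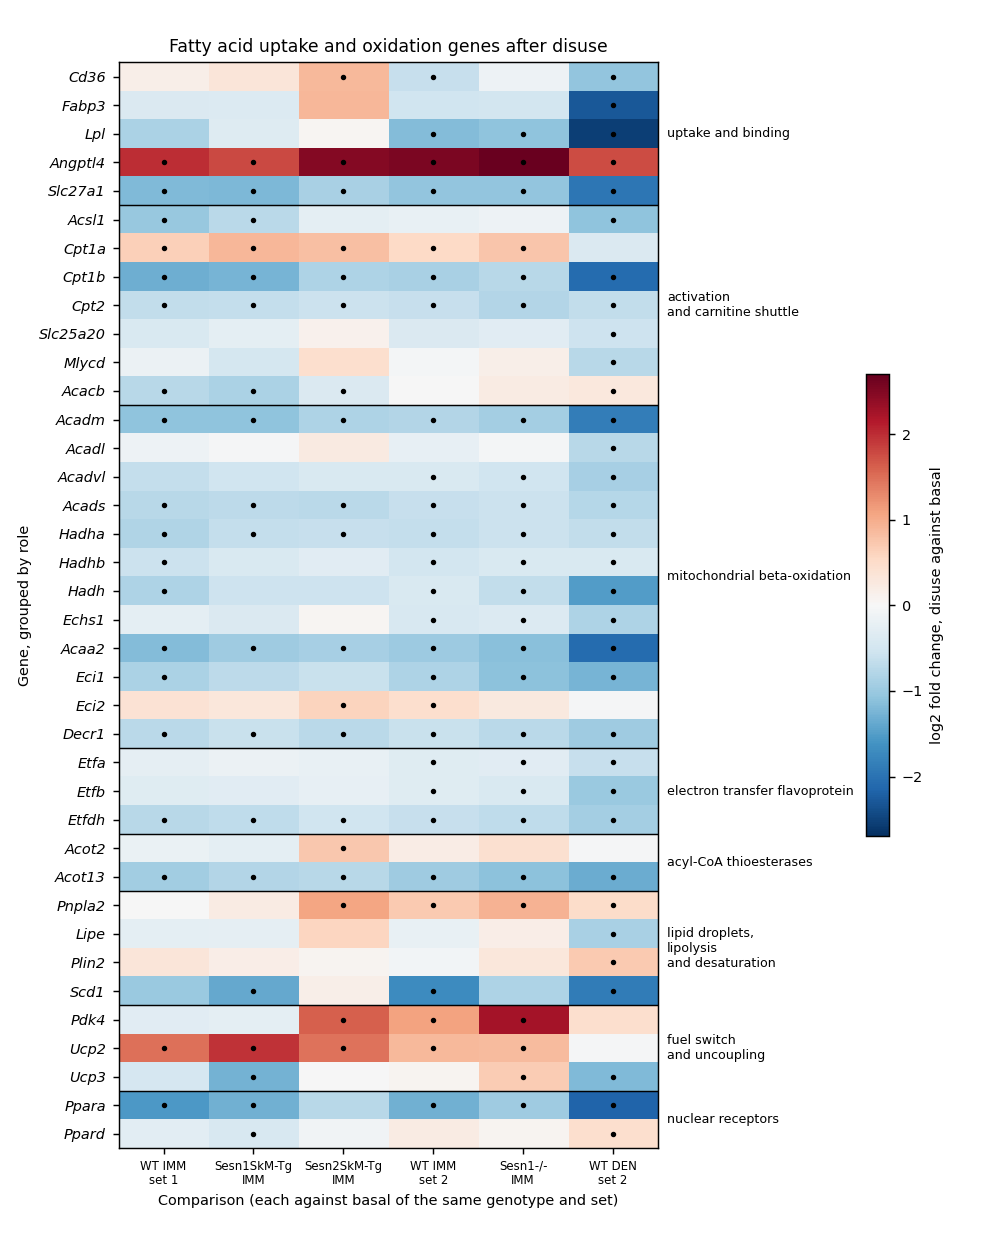
Log2 fold change of each of the 38 genes (rows, by role) in the 6 comparisons of disused with basal muscle (columns; IMM, immobilized; DEN, denervated). Colour gives the fold change and a black dot marks a called gene. Rows such as Cpt1b, Acadm and Acaa2 are blue in all 6 columns, Angptl4 is red in all 6, and Cd36, Acacb, Ucp3 and Pdk4 differ between columns.

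Among the uptake genes, Lpl fell after denervation and Angptl4 rose in every model. The 4 basal WT libraries of set 2 had Lpl at 500.4, 452, 456 and 304, the 4 immobilized ones at 181, 145, 198 and 229.6, and the 4 denervated ones at 73.4, 61.6, 73.1 and 77.6. The 3 ranges did not overlap, with denervated muscle lowest. Lpl fell by 2.55 (SE 0.16, adjusted p 5.2e-11) after denervation and by 1.17 (SE 0.16, adjusted p 1.4e-05) after immobilization. In Sesn1-/- muscle it fell by 1.10 (SE 0.16). In set 1 its basal values spread from 95.2 to 489.8 and it was not called after immobilization, with log2 fold changes of -0.86 (WT), -0.35 (Sesn1SkM-Tg) and 0.05 (Sesn2SkM-Tg).

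Angptl4 was near the floor of the table in basal muscle. In WT muscle of set 2 it was at 1.60, 0.363, 0.647 and 0.593 in basal libraries, 8.46, 12.6, 5.04 and 12.4 after immobilization and 5.42, 6.14, 3.37 and 5.05 after denervation. Each disused library was above each basal one. Its log2 fold change was 2.53 (SE 0.30, adjusted p 1.7e-06) after immobilization and 1.76 (SE 0.30, adjusted p 3.3e-05) after denervation, and it lay between 1.79 and 2.68 in the other 4 comparisons. In Sesn1SkM-Tg muscle the ranges overlapped (basal 1.76 to 4.83, immobilized 4.51 to 34.0), and without immobilized replicate 3 the change was 1.16 (adjusted p 0.075).

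Slc27a1, the fatty acid transporter FATP1, was at 69.4 to 91.6 in basal, 32.8 to 44.8 in immobilized and 15.8 to 25.2 in denervated WT libraries of set 2, ranges that did not overlap. It fell in all 6 comparisons by 0.87 to 1.95, and its call in Sesn2SkM-Tg muscle was lost without basal replicate 2 (-0.68, adjusted p 0.053) or immobilized replicate 2 (-0.78, adjusted p 0.051). Fabp3, the heart- and muscle-type binding protein, was called in denervated muscle and in none of the immobilization comparisons. In WT muscle of set 2 it was at 357, 389, 364 and 293 in basal libraries, 194, 169, 274 and 378 after immobilization and 54.0, 61.5, 91.7 and 80.5 after denervation. The denervated libraries were below all others, while the immobilized range overlapped the basal one. Fabp3 fell by 2.29 (SE 0.22, adjusted p 2.3e-08) after denervation. Of the 7 markers of oxidative and slow fibres (Myh7, Myl2 and others), 2 were called lower and 1 higher in the same comparison, and their summed level was 133 to 284 in denervated against 591 to 1500 in basal libraries; the part of this in the change of Fabp3 was not tested.

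Cd36 changed in opposite directions. In Sesn2SkM-Tg muscle it was at 222, 229.9, 163 and 253 in basal and 518, 309, 391 and 380.4 in immobilized libraries. In WT muscle of set 2 it was at 364, 390.5, 380.4 and 266 in basal, 184, 191, 258 and 272 in immobilized and 173, 148, 175 and 171 in denervated libraries. All immobilized Sesn2SkM-Tg libraries were above the basal ones, and all denervated WT libraries were below, while 1 immobilized WT library of set 2 was above the lowest basal one. Cd36 rose by 0.87 (SE 0.18, adjusted p 0.00095) in Sesn2SkM-Tg muscle, and fell by 0.63 (SE 0.15, adjusted p 0.0022) after immobilization and by 1.05 (SE 0.15, adjusted p 3.5e-06) after denervation in WT muscle of set 2. Cd36 is also expressed by capillary endothelium, and the 6 endothelial markers (Pecam1, Cdh5, Kdr, Tek, Emcn, Egfl7) changed in the same direction in these 3 comparisons. In immobilized Sesn2SkM-Tg muscle 5 of the 6 were called higher (summed level 284 to 365 against 149.8 to 207), and all 6 were called lower in immobilized (153 to 238) and denervated (137 to 176) against basal WT muscle of set 2 (268 to 355). They also changed where Cd36 was not called, with 4 of 6 higher in immobilized Sesn1SkM-Tg muscle (170.7 to 252 in basal, 261.5 to 292 in immobilized libraries; Cd36 0.33) and 2 of 6 lower in immobilized Sesn1-/- muscle (252 to 332 and 172.5 to 245; Cd36 -0.15). Their part in the change of Cd36 was not tested.

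**Figure D2:**
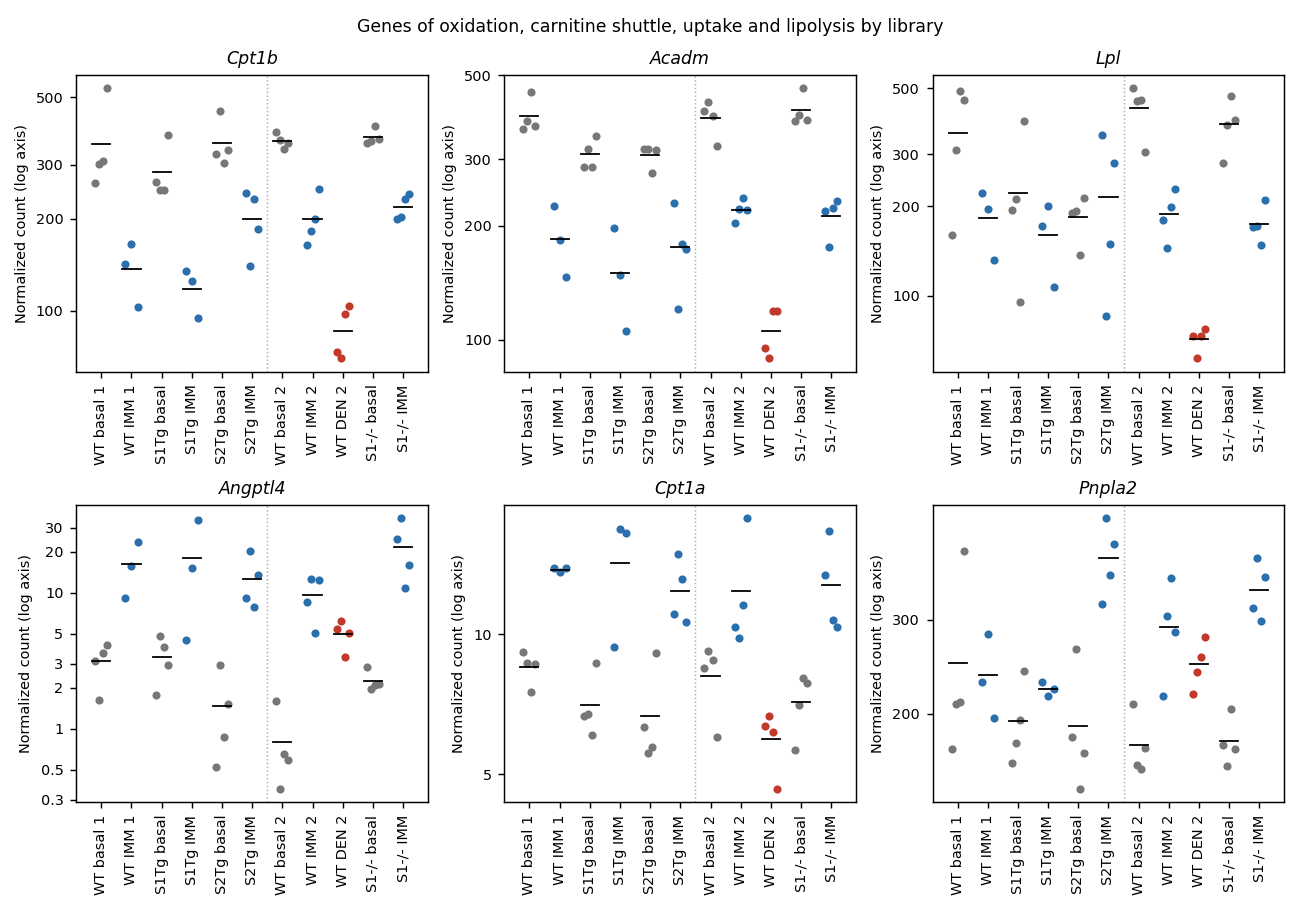
Normalized counts (log axis) of 6 genes in each library (points) with the group mean (line), in basal (grey), immobilized (IMM, blue) and denervated (DEN, red) muscle. S1Tg is Sesn1SkM-Tg, S2Tg is Sesn2SkM-Tg, S1-/- is Sesn1-/-, 1 and 2 are the sets and the dotted line separates them. Cpt1b and Acadm were lower in each disused library than in every basal library of its genotype and set, and Angptl4 and Cpt1a were higher in immobilized muscle, with overlap for Angptl4 in S1Tg muscle.

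At the carnitine step the muscle-type CPT1 gene fell after immobilization and the liver-type gene rose. Cpt1b was at 386, 361, 337 and 355 in basal WT libraries of set 2, 164, 182, 200.4 and 249.6 after immobilization and 73.3, 70.0, 97.3 and 104 after denervation. The 3 ranges did not overlap. Cpt1b fell by 2.07 (SE 0.12, adjusted p 1.9e-11) after denervation and by 0.76 to 1.33 in the 5 immobilization comparisons. Cpt1a was at 8.47, 9.21, 8.80 and 6.01 in basal, 10.4, 9.81, 11.5 and 17.7 in immobilized and 6.34, 6.67, 6.15 and 4.66 in denervated libraries of the same set. Immobilized libraries were above the basal ones, and the denervated range overlapped the basal range at its low end. Cpt1a rose by 0.53 to 0.89 in the immobilization comparisons, and its log2 fold change after denervation was -0.39 (SE 0.18, adjusted p 0.077). Its call after immobilization was lost in WT muscle of set 1 without immobilized replicate 3 (0.64, adjusted p 0.052) and of set 2 without basal replicate 4 (0.41, adjusted p 0.11) or immobilized replicate 4 (0.35, adjusted p 0.12). Cpt1a is also expressed by many cells other than fibres. The 7 macrophage markers summed to 43.2 to 68.3 in basal and 229 to 430 in immobilized WT muscle of set 1 and to 32.3 to 67.4 and 175 to 490 in Sesn1SkM-Tg muscle. Of the 5 fibroblast markers, 5 were called higher in Sesn1SkM-Tg muscle (summed level 339.8 to 526 in basal, 865 to 2347 in immobilized libraries), 3 in WT muscle of set 1 (336 to 796 and 757 to 1362) and 0 in the other 3 immobilization comparisons. The part of either in the change of Cpt1a was not tested.

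Because both genes come from the same library, their ratio does not depend on a scaling factor of the library. The normalized count of Cpt1b was 38.3 to 59.0 times that of Cpt1a in basal WT muscle of set 2, 14.1 to 18.6 times after immobilization and 10.5 to 22.2 times after denervation. In set 1 the ratio was 28.6 to 62.2 in basal and 7.43 to 12.2 in immobilized WT muscle. In immobilized Sesn1SkM-Tg, Sesn2SkM-Tg and Sesn1-/- muscle the highest ratio (14.3, 21.95 and 23.3) was below the lowest in basal muscle of that genotype (37.0, 37.0 and 46.7). Cpt1b stayed the higher of the pair in every library. The ratio was chosen after the values were seen and was not tested.

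Cpt2, the inner membrane carnitine palmitoyltransferase, fell by 0.58 to 0.79 in all 6 comparisons. Its call was lost in WT muscle of set 1 (-0.56, adjusted p 0.089) and in Sesn1SkM-Tg muscle (-0.62, adjusted p 0.052) without immobilized replicate 3, and in Sesn2SkM-Tg muscle without basal replicate 2 (-0.44, adjusted p 0.063) or immobilized replicate 2 (-0.54, adjusted p 0.054). By contrast, the carnitine-acylcarnitine translocase Slc25a20 and Mlycd were called in denervated muscle alone among the 6, at -0.56 and -0.74. Denervated and immobilized muscle differed for Mlycd (-0.68, adjusted p 0.0081) and were not called different for Slc25a20 (-0.18, 95% interval of -0.52 to 0.15). Acsl1, the main long-chain acyl-CoA synthetase of muscle, fell after denervation (by 1.09), in immobilized WT muscle of set 1 (by 1.03) and in immobilized Sesn1SkM-Tg muscle (by 0.72). Acacb was called in opposite directions. In set 1 it fell from 352, 409.8, 413 and 512 to 323, 241 and 194 in WT muscle, with no overlap (by 0.76, SE 0.16, adjusted p 0.0014), and by 0.85 in Sesn1SkM-Tg and 0.39 in Sesn2SkM-Tg muscle, the last a call lost without any of 7 single libraries (-0.34, adjusted p 0.12, without basal replicate 4). In WT muscle of set 2 it was at 396, 319, 304 and 328 in basal and 349, 416, 463 and 408 in denervated libraries, which overlapped. The increase of 0.28 (SE 0.11, adjusted p 0.029) was lost without any of 6 single libraries, the lowest value being 0.22 (adjusted p 0.11) without denervated replicate 3.

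Between 5 and 11 of the 12 genes of beta-oxidation enzymes were called lower in each disuse comparison, and Eci2 was called higher in 2. After denervation 11 of the 12 were lower, against 27.7% of all genes, with a median log2 fold change of -0.87. After immobilization 8 (WT, set 1), 10 (WT, set 2), 5 (Sesn1SkM-Tg), 5 (Sesn2SkM-Tg) and 10 (Sesn1-/-) were lower, against 14.5%, 17.7%, 16.5%, 15.7% and 19.9% of all genes, and the medians lay between -0.55 and -0.74. Acadm was at 404, 424, 391 and 326 in basal, 203, 222, 237 and 220.3 in immobilized and 95.4, 89.3, 119 and 119 in denervated WT libraries of set 2. The 3 ranges did not overlap. Acadm fell by 1.86 (SE 0.11, adjusted p 1.8e-11) after denervation and by 0.80 to 1.08 in the immobilization comparisons. Acaa2, the thiolase of the last step, was at 163, 182, 154 and 143, at 70.8, 70.0, 84.7 and 98.9 and at 31.0, 36.0, 41.0 and 41.9 in the same order of groups, again without overlap, and fell by 2.07 (SE 0.13) after denervation. Hadh, the short-chain hydroxyacyl-CoA dehydrogenase, was at 167 to 203 in basal, 127 to 146 in immobilized and 51.7 to 73.7 in denervated libraries, and fell by 1.51 after denervation and by 0.40 after immobilization in that set.

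The remaining enzymes changed less. Acads (short-chain dehydrogenase) and Decr1 (dienoyl-CoA reductase) fell in all 6 comparisons, by 0.57 to 0.95. Eci1, the enoyl-CoA isomerase of mitochondria, was at 100.4 to 113 in basal, 56.5 to 61.6 in immobilized and 38.5 to 47.8 in denervated WT libraries of set 2, and fell by 0.83 to 1.25 in 4 comparisons. Its call in WT muscle of set 1 was lost without any of 4 single libraries (-0.53, adjusted p 0.12, without basal replicate 4). Acadvl, for very long chains, and the hydratase gene Echs1 fell by 0.36 to 0.90 in 3. Acadl, the long-chain dehydrogenase, was called in denervated muscle alone among the 6 (-0.74, SE 0.12), and denervated muscle was also lower than immobilized muscle (-0.51, adjusted p 0.0020). Eci2, an enoyl-CoA isomerase found in mitochondria and peroxisomes, went the other way from Eci1. It rose in immobilized WT muscle of set 2 (0.45, SE 0.12, adjusted p 0.0057) and Sesn2SkM-Tg muscle (0.60, SE 0.15, adjusted p 0.0039) and was not called after denervation (-0.04).

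Hadha and Hadhb encode the alpha and beta subunits of the mitochondrial trifunctional protein and are divergent neighbours on chromosome 5 whose annotated starts lie 86 bases apart (30155162 on the minus and 30155248 on the plus strand). Hadha fell in all 6 comparisons by 0.59 to 0.82, and Hadhb fell in 4 by 0.41 to 0.58. The Hadha to Hadhb ratio was 0.912 to 1.01 in basal, 0.840 to 0.900 in immobilized and 0.707 to 0.861 in denervated WT libraries of set 2, and 0.868 to 1.01 against 0.737 to 0.8288 in WT muscle of set 1. It was also lower in every immobilized than in every basal library of Sesn1SkM-Tg (highest 0.794 against lowest 0.864), Sesn2SkM-Tg (0.9175 against 0.9356) and Sesn1-/- muscle (0.838 against 0.880). The difference on the log2 scale was between -0.15 and -0.32. This ratio too is free of a library's scaling factor, was chosen with the values known and was not tested. The ratios of Acacb to Mlycd and of Lpl to Angptl4 were also formed, and overlapped between disused and basal libraries in some comparisons and not in others. Lpl to Angptl4 was 24.0 to 130.8 in basal and 3.16 to 38.1 in immobilized Sesn1SkM-Tg muscle. Acacb to Mlycd was 3.79 to 4.21 in basal and 3.46 to 5.54 in immobilized WT muscle of set 2. With libraries scaled to the same sum, Hadhb itself turned from -0.42 to 0.05 (adjusted p 0.70) after denervation.

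**Figure D3:**
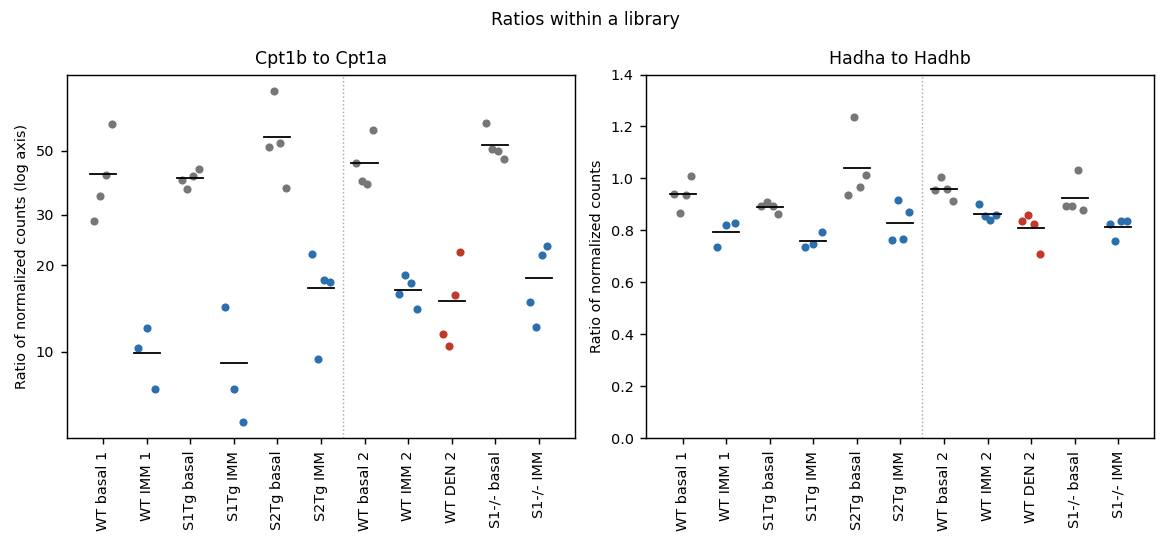
Ratio of the normalized counts of Cpt1b to Cpt1a (left, log axis) and of Hadha to Hadhb (right, linear axis from 0) in each library (points) with the group mean (line), with groups and colours as in the plot of counts by library. Both ratios are lower in each disused library than in every basal library of the same genotype and set.

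The electron transfer flavoprotein genes all fell after disuse in set 2, and of them only Etfdh was also called in set 1. Etfdh, the oxidoreductase that passes electrons to ubiquinone, fell in all 6 comparisons by 0.54 to 0.92, and Etfa and Etfb, which encode the subunits of the electron transfer flavoprotein, fell after denervation (by 0.62 and 1.00) and after immobilization in WT and Sesn1-/- muscle of set 2 (by 0.31 to 0.42). The thioesterase gene Acot13 was at 70.4 to 85.4 in basal, 34.5 to 42.8 in immobilized and 27.4 to 32.5 in denervated WT libraries of set 2, without overlap, and fell in all 6 comparisons by 0.76 to 1.35. Acot2, a mitochondrial thioesterase, was called in Sesn2SkM-Tg muscle alone among the 6, where it rose by 0.73 (SE 0.24, adjusted p 0.025). That call was lost without any of 3 single libraries (0.55, adjusted p 0.10, without basal replicate 3), and the difference from the WT effect was not called (0.90, adjusted p 0.58).

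Among the lipid droplet genes Pnpla2 and Plin2 rose after denervation, and Lipe and Scd1 fell. Pnpla2, which encodes the triglyceride lipase ATGL, was at 208, 161, 158 and 173 in basal, 216, 305, 358 and 284 in immobilized and 218, 239.8, 255 and 279 in denervated WT libraries of set 2. All disused libraries were above the basal ones. Pnpla2 rose by 0.71 (SE 0.13, adjusted p 0.00025) after immobilization and by 0.50 (SE 0.13, adjusted p 0.0026) after denervation, and by 1.06 in Sesn2SkM-Tg and 0.93 in Sesn1-/- muscle after immobilization. Its log2 fold change was -0.01 in WT muscle of set 1. Plin2 was at 29.1, 24.8, 25.1 and 29.0 in basal and 37.9, 39.6, 54.0 and 49.8 in denervated libraries, without overlap, and rose by 0.71 (SE 0.16, adjusted p 6.0e-04). Lipe, the hormone-sensitive lipase, fell after denervation by 0.88 and was not called after immobilization.

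Scd1, the stearoyl-CoA desaturase, was at 44.5, 59.8, 105 and 24.6 in basal, 16.6, 16, 14.7 and 13.6 in immobilized and 17.2, 16.4, 12.2 and 8.42 in denervated WT muscle of set 2. The basal libraries were the highest and did not overlap with the others. Scd1 fell by 1.7 (SE 0.45, adjusted p 0.0054) after immobilization and by 1.89 (SE 0.45, adjusted p 0.0011) after denervation. It also fell in Sesn1SkM-Tg muscle (by 1.39, adjusted p 0.039), a call that was lost without any of 5 single libraries (-0.82 without basal replicate 2, adjusted p 0.15). Scd1 is abundant in fat, and the 6 adipocyte markers (Adipoq, Plin1, Cidec, Cfd, Lep, Retn) summed to 5.39 to 25.6 in basal, 1.46 to 5.59 in immobilized and 1.62 to 5.89 in denervated WT muscle of set 2, with 4 and 6 of the 6 called lower; their part in the change of Scd1 was not tested.

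Among the genes of the fuel switch and uncoupling, Pdk4 rose in 3 of the 5 immobilization comparisons. It was at 508, 377, 351 and 298 in basal, 507, 876, 989 and 913 in immobilized and 407, 543, 490.1 and 655 in denervated WT libraries of set 2. In Sesn1-/- muscle it was at 236, 209, 495 and 228 in basal and 1395, 2046, 1009 and 973 in immobilized libraries. All immobilized Sesn1-/- libraries were above all basal ones, while the lowest immobilized WT library was just below the highest basal one. Pdk4 rose by 2.24 (SE 0.27, adjusted p 1.4e-06) in Sesn1-/- and by 1.08 (SE 0.27, adjusted p 0.0035) in WT muscle of set 2 after immobilization. In set 1 it rose by 1.61 (SE 0.29) in Sesn2SkM-Tg muscle, and its log2 fold changes were -0.32 in WT and -0.27 in Sesn1SkM-Tg muscle.

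Ucp2, an uncoupling protein expressed in many immune cells, rose after immobilization in all 5 comparisons by 0.85 to 1.95 and was not called after denervation (-0.02). It was at 8.16, 6.80, 9.91 and 11.9 in basal and 19.8, 24.9 and 40.0 in immobilized WT libraries of set 1, which did not overlap. The 7 macrophage markers (Cd68, Csf1r, Lyz2, C1qa, C1qb, Mrc1, Itgam) summed to 43.2 to 68.3 and to 229 to 430 in the same libraries, all 7 called higher, and in denervated muscle 1 of 7 was called; their part in the change of Ucp2 was not tested. The calls of Ucp2 in set 2 were close to the threshold (adjusted p 0.046 in WT and 0.047 in Sesn1-/- muscle) and were lost without any of 6 single libraries, with the lowest values 0.64 in WT muscle without immobilized replicate 4 and 0.56 in Sesn1-/- muscle without immobilized replicate 2. Ucp3, the uncoupling protein of muscle, was called in opposite directions. It was at 133, 114, 108 and 125 in basal, 94.3, 136, 142 and 136 in immobilized and 40.3, 39.3, 67.5 and 66.5 in denervated WT muscle of set 2. In Sesn1SkM-Tg muscle it was at 146, 127, 144 and 183 in basal and 62.4, 60.4 and 58.2 in immobilized libraries, and in Sesn1-/- muscle at 103, 93.7, 129.8 and 87.3 and at 132, 236, 124 and 197. Denervated WT and immobilized Sesn1SkM-Tg libraries were all below their basal ones, and Sesn1-/- libraries overlapped. Ucp3 fell by 1.19 (SE 0.20, adjusted p 4.0e-05) after denervation and by 1.29 (SE 0.24, adjusted p 0.00047) in Sesn1SkM-Tg muscle, and rose by 0.69 (SE 0.20, adjusted p 0.010) in Sesn1-/- muscle, a call lost without immobilized replicate 2 (0.52, adjusted p 0.051).

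Of the 2 receptors, Ppara fell after denervation and Ppard rose. Ppara was at 13.2, 11.2, 12.7 and 6.40 in basal, 2.63, 4.88, 4.62 and 2.98 in immobilized and 1.55, 1.25, 1.67 and 1.85 in denervated WT libraries of set 2. The 3 ranges did not overlap. Ppara fell by 2.16 (SE 0.25, adjusted p 2.3e-07) after denervation and by 0.97 to 1.54 in 4 immobilization comparisons, and was not called in Sesn2SkM-Tg muscle (-0.75, adjusted p 0.10). Ppard rose after denervation by 0.46 (SE 0.14, adjusted p 0.0083), from 20.7 to 22.5 in basal to 22.6 to 37.2 in denervated libraries. It fell in immobilized Sesn1SkM-Tg muscle by 0.44 (SE 0.16, adjusted p 0.041), a call lost without any of 6 single libraries (-0.40 without basal replicate 4, adjusted p 0.094).

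**Figure D4:**
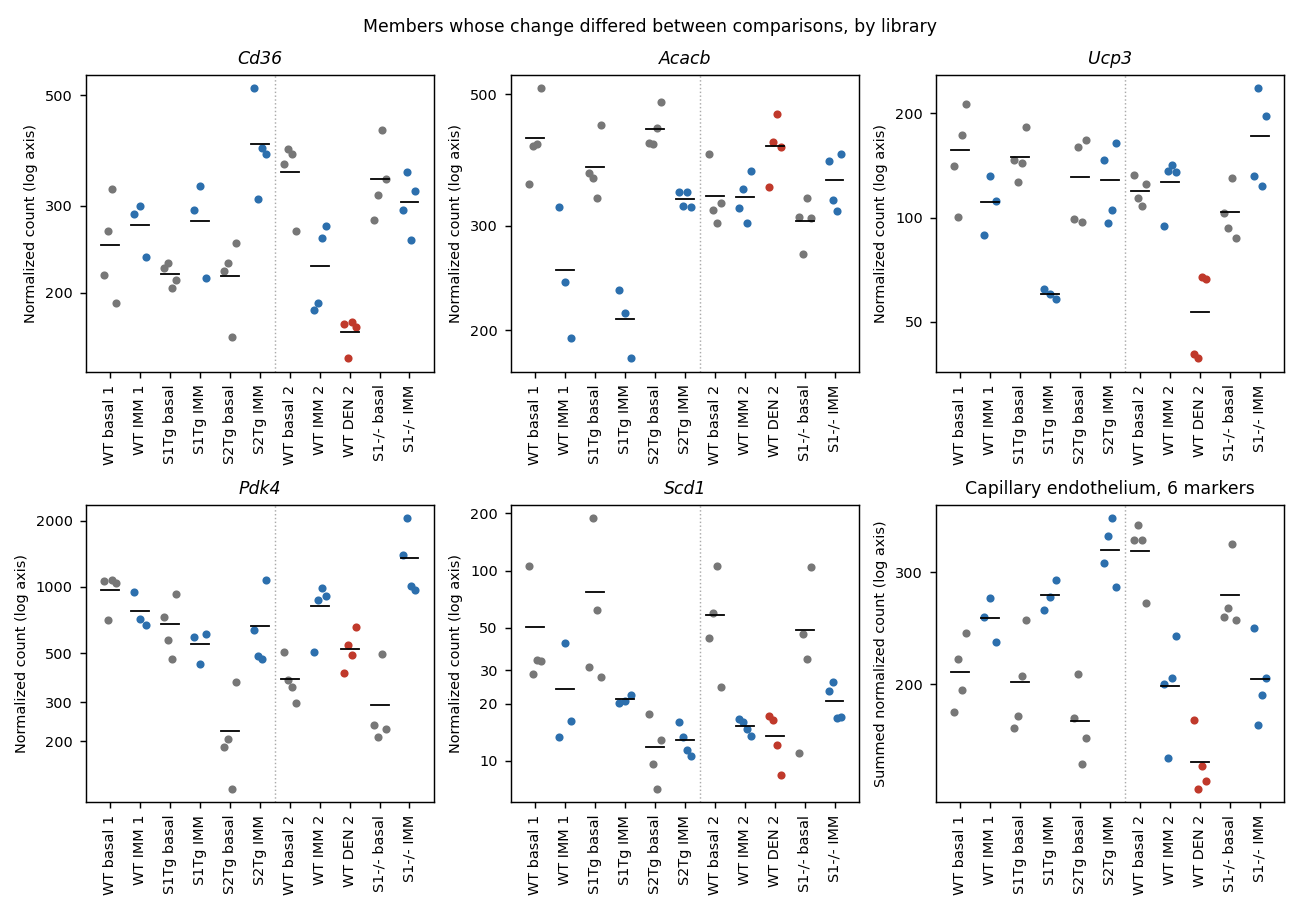
Normalized counts (log axis) of Cd36, Acacb, Ucp3, Pdk4 and Scd1 and the summed level of 6 capillary endothelium markers in each library (points) with the group mean (line), with groups and colours as in the plot of Cpt1b, Acadm and Lpl by library. Cd36 and the endothelial markers are higher in immobilized than basal S2Tg muscle and lower in immobilized and denervated than basal WT muscle of set 2, and Pdk4 is lowest in basal S2Tg muscle among the basal groups of set 1.

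Denervated and immobilized WT muscle of set 2 were then compared directly, since both were set against the same 4 basal libraries above. Of the 38 genes, 25 were lower and 2 higher in denervated muscle (71.1% called, against 38.9% of all genes, 20.5% higher and 18.4% lower). The median log2 difference was -0.49 (all genes -0.02). The largest decreases were in Fabp3 (-1.76, SE 0.22), Lpl (-1.37, SE 0.16), Ucp3 (-1.26, SE 0.20), Cpt1b (-1.20, SE 0.12), Hadh (-1.11, SE 0.11) and Acaa2 (-1.09, SE 0.13), with adjusted p between 4.5e-05 and 6.8e-08. Plin2 (0.79, SE 0.16) and Acacb (0.28, SE 0.11) were the higher genes. Some genes that were higher after immobilization than in basal muscle were among the lower ones here, namely Angptl4 (-0.78), Cpt1a (-0.92), Ucp2 (-0.89) and Eci2 (-0.49). Pnpla2 (-0.21) and Pdk4 (-0.62), also higher after immobilization in that set, were not called different. The calls of Angptl4 and Acacb were each lost without any of 6 single libraries and that of Ucp2 without any of 4, the smallest differences being -0.63 (Angptl4, without denervated replicate 3 or immobilized replicate 2), 0.22 (Acacb, without denervated replicate 3) and -0.66 (Ucp2, without immobilized replicate 4). Cpt2 (-0.05, 95% interval of -0.32 to 0.22), Acads (-0.14, -0.38 to 0.10) and Hadha (-0.02, -0.28 to 0.24) were not called different. With libraries scaled to the same sum the median of all genes rose by 0.28, and 5 genes were higher and 12 lower. The medians of the 38 and of all genes were then -0.15 and 0.26. The share of all genes called at that scaling is not given here.

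**Figure D5:**
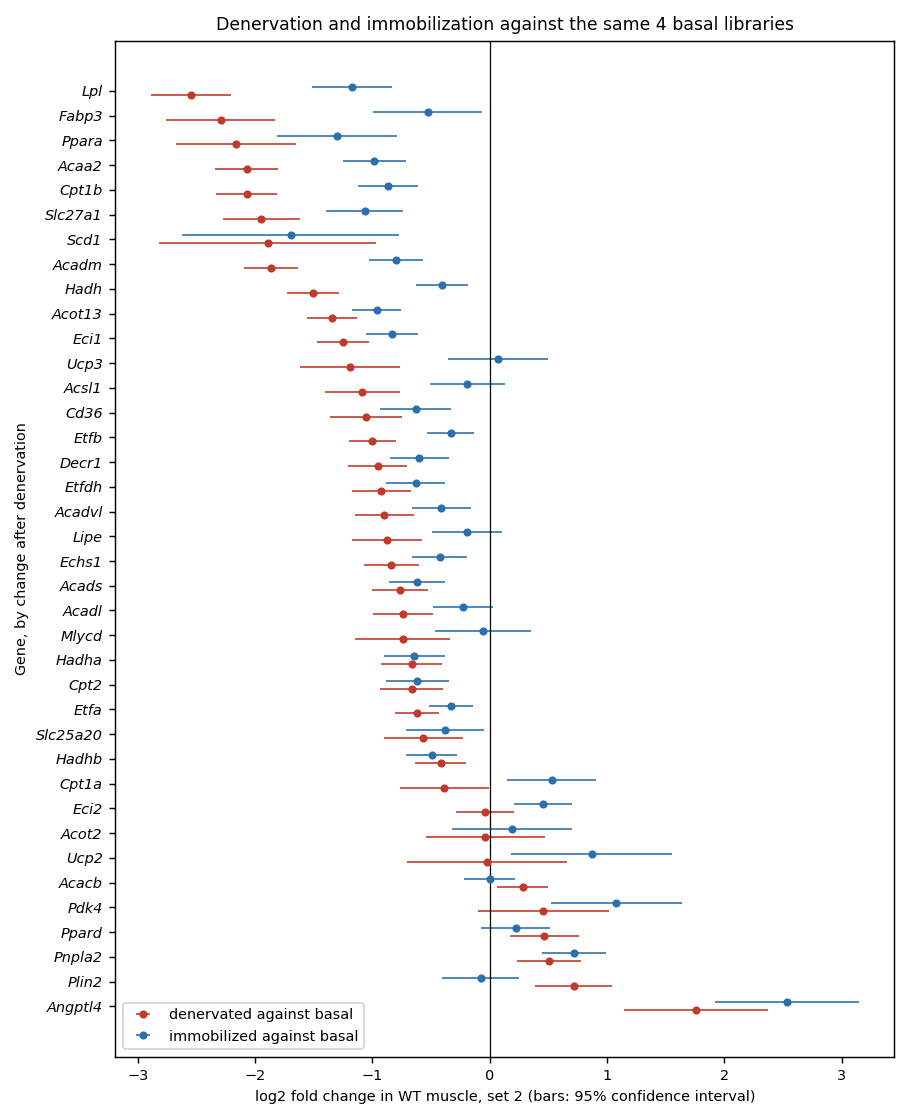
Log2 fold change of each of the 38 genes after denervation (red) and immobilization (blue) in WT muscle of set 2, ordered by the change after denervation, with 95% confidence intervals as bars. Both series share the 4 basal libraries. Lpl, Fabp3, Cpt1b, Acaa2 and Acadm lie farther to the left after denervation, while Hadha, Cpt2 and Acads lie close together.

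Between genotypes, 2 of the 38 genes were called in basal muscle. In Sesn2SkM-Tg against WT muscle, Pdk4 and Scd1 were called lower and 0 genes higher (5.26% called, against 2.5% of all genes, 1.5% higher and 1% lower). Pdk4 was at 189, 206, 122 and 372 in Sesn2SkM-Tg and 1064, 708, 1079 and 1045 in WT basal libraries, without overlap, and was lower by -2.22 (SE 0.29, adjusted p 0.00015), a call kept without any single library. Scd1 was at 17.6, 9.61, 7.16 and 12.9 against 106, 28.7, 34.0 and 33.4, also without overlap, and was lower by -1.85 (SE 0.47, adjusted p 0.036). The call of Scd1 was lost without any of 5 single libraries, with the smallest change -1.43 (adjusted p 0.16) without WT replicate 1, and the adipocyte markers summed to 2.02 to 4.84 in Sesn2SkM-Tg and 4.91 to 44.6 in WT basal muscle; their part in the difference was not tested. In Sesn1SkM-Tg and Sesn1-/- against WT basal muscle 0 of 38 were called (against 0.0292% and 0.147% of all genes, the latter 0.0587% higher and 0.088% lower). By limma, 0 and 2 of the 38 had p under 0.05 before adjustment, against 497 of 13705 and 632 of 13629 genes. In basal Sesn1SkM-Tg against WT muscle the difference was above 0 in 3 of the 38 genes (7.89%, against 51.4% of all genes). Its median was -0.22, and between -0.34 and -0.05 without a single library. The difference was above 0 in 15 genes for Sesn2SkM-Tg (39.5% against 52.6%) and in 25 for Sesn1-/- muscle (65.8% against 51.7%). Angptl4 was at 1.96 to 2.84 in Sesn1-/- and 0.363 to 1.60 in WT basal libraries, without overlap, and its difference of 0.89 (95% interval of 0.28 to 1.51) had an adjusted p of 0.81.

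In immobilized muscle 0 of the 38 were called in Sesn1SkM-Tg, Sesn2SkM-Tg and Sesn1-/- against WT (against 0.0073%, 2.94% and 0.947% of all genes). Of all genes, 1.65% were higher and 1.29% lower in Sesn2SkM-Tg and 0.528% and 0.418% in Sesn1-/- muscle. By limma, 1, 10 and 6 of the 38 had p under 0.05 before adjustment, against 417 and 2637 of 13705 and 1917 of 13629 genes. In the same order, the difference was above 0 in 8, 29 and 31 of the 38 (21.1%, 76.3% and 81.6%). Of all genes, 51.4%, 51.5% and 47.8% were above 0. The medians of the 38 were -0.13, 0.23 and 0.09. Without a single library the counts above 0 lay between 4 and 14, 25 and 32, and 23 and 32. Without single libraries, Ppard was called in Sesn2SkM-Tg muscle (0.70, adjusted p 0.048, without WT replicate 1) and Angptl4 in Sesn1-/- muscle (1.31, adjusted p 0.031, without Sesn1-/- replicate 3, and 1.14, adjusted p 0.048, without replicate 4). The effect of immobilization in each genotype minus that in WT muscle was tested as well. In each of the 3 genotypes 0 of 38 were called (against 0%, 0.0073% and 0.022% of all genes, for Sesn1-/- 0.0147% higher and 0.00734% lower). By limma, 1, 7 and 3 of the 38 had p under 0.05 before adjustment, against 401 and 1008 of 13705 and 1087 of 13629 genes. For Sesn2SkM-Tg the difference of effects was above 0 in 36 of 38 genes (94.7%, against 49.0% of all genes), with a median of 0.30 (all genes -0.01). Without a single library the count lay between 27 and 37 and the median between 0.16 (without WT basal replicate 4) and 0.46 (without Sesn2SkM-Tg basal replicate 2). Its largest member was Pdk4 at 1.93 (95% interval of 1.05 to 2.81, adjusted p 0.13), followed by Fabp3 (1.29, 0.10 to 2.48). For Sesn1SkM-Tg it was above 0 in 27 genes (median 0.07), but in 12 without WT basal replicate 4 (median -0.13). For Sesn1-/- it was above 0 in 25 (median 0.06).

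The response of WT muscle to immobilization was called different between the 2 sets in 3 of the genes. That share (7.89%) was near the 6.2% of all 13763 genes (3.16% higher and 3.04% lower). The effect of immobilization in set 2 minus that in set 1 was 1.39 for Pdk4 (SE 0.43, adjusted p 0.046), 0.75 for Acacb (SE 0.19, adjusted p 0.012) and -0.79 for Cd36 (SE 0.25, adjusted p 0.049). Pdk4 was at 1064, 708, 1079 and 1045 in basal and 953, 714 and 675 in immobilized WT libraries of set 1, which overlapped. The calls of Pdk4 and Cd36 were each lost without any of 11 single libraries and that of Acacb without 1, the smallest differences being 1.28 for Pdk4 (adjusted p 0.076, without set 2 basal replicate 4), 0.58 for Acacb (adjusted p 0.082, without set 1 immobilized replicate 3) and -0.67 for Cd36 (adjusted p 0.095, without set 1 basal replicate 4).

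In several basal groups 1 library was high in most of the 38 genes. WT basal replicate 4 of set 1 was the highest of its group in 30 genes, and its median deviation from the group mean was 0.49 on the log2 scale (all genes 0.02). Sesn1SkM-Tg basal replicate 4 (32 genes, 0.32), Sesn2SkM-Tg basal replicate 2 (28 genes, 0.42) and Sesn1-/- basal replicate 3 (32 genes, 0.24) were similar. The same 4 libraries had the highest summed level of oxidative and slow fibre markers in their group, at 2269, 1046, 2461 and 2020, where the other basal libraries of those groups ranged from 68.9 to 1878. Disused groups went both ways. In immobilized WT (sets 1 and 2), Sesn2SkM-Tg and Sesn1-/- muscle, the library with the highest sum was also highest in the most genes. By contrast, immobilized Sesn1SkM-Tg replicate 3 had the highest sum (1777) and was lowest in 24 genes. Denervated replicates 3 and 4, each highest in 17 genes, had the lowest sums (144.5 and 133.3). The part of fibre type in these values was not tested. Without WT basal replicate 4 of set 1, the median change after immobilization was -0.35 in place of -0.52. Without Sesn2SkM-Tg basal replicate 2 the median in that genotype was -0.01 in place of -0.15.

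Other genes of fatty acid metabolism were read from lists of 86 further genes. Of these, 53 were lower and 10 higher after denervation (73.3% called, against 55.5% of all genes, 27.7% lower and 27.8% higher), with a median log2 fold change of -0.61. After immobilization 30 were lower and 11 higher in WT muscle of set 1 and 41 and 6 in set 2, with medians of -0.42 and -0.36. The counts were 34 and 11 in Sesn1SkM-Tg, 31 and 13 in Sesn2SkM-Tg and 36 and 4 in Sesn1-/- muscle. The shares called in these 5, in that order, were 47.7%, 54.7%, 52.3%, 51.2% and 46.5%, against 29.3%, 33.9%, 34.7%, 30.7% and 37.1% of all genes. The lists below are to be read against the share of all genes called lower, 27.7% after denervation and 14.5% to 19.9% after immobilization, and against the 27.8% called higher after denervation. Of 20 further genes of carnitine and mitochondrial oxidation, 15 fell after denervation (80% called in either direction), led by the ketone body enzymes Bdh1 (-3.21) and Oxct1 (-2.12), and 11 to 13 fell in each immobilization comparison. Oxct1 was among the 2 largest decreases of that list in all 5, by 0.85 to 1.2. Of 14 peroxisomal genes, 9 fell after denervation (64.3% called) and 5 to 9 after immobilization, with 0 higher in any of the 6 comparisons, and Abcd2, a peroxisomal importer of very long acyl chains, fell most (by 2.04 after denervation, and by 1.09 to 1.73 after immobilization).

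Of 14 storage and lipolysis genes, 9 fell after denervation (64.3% called, against 55.5% of all genes), and G0s2, which encodes an inhibitor of ATGL, fell by 3.49 after denervation and by 2.02, 2.73 and 1.69 in immobilized WT muscle of set 2, Sesn1-/- and Sesn2SkM-Tg muscle, the comparisons in which Pnpla2 rose. In WT and Sesn1SkM-Tg muscle of set 1, where Pnpla2 was not called, G0s2 was not called either (-0.49 and -0.50). Of 14 thioesterases, kinases and regulators, 10 fell after denervation (85.7% called), among them Rxrg, a partner receptor of the PPARs (by 2.27), which also fell by 1.03 to 1.51 in the 5 immobilization comparisons, while Acot9 rose in all 6 (by 0.85 to 1.25). Of 12 synthesis genes, 6 fell and 2 rose after denervation (66.7% called), and Srebf1, the activator of fatty acid synthesis, fell in all 6 comparisons by 1.27 to 2.17. Of 12 further transport, binding and activation genes, 4 fell and 5 rose after denervation (75% called). Among them, Fabp4 and Gpihbp1, both made by capillary endothelium, fell after denervation (by 1.10 and 1.06) and rose in immobilized Sesn2SkM-Tg muscle (by 1.2 and 1.04), as Cd36 did. They also rose in immobilized WT (by 0.91 and 0.71) and Sesn1SkM-Tg muscle of set 1 (by 0.64 and 0.67), where Cd36 was not called.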

How the data were processed

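RNA of TA muscle was sequenced by the authors on an Illumina HiSeq instrument. Per the submitters' processing notes and the paper, reads were trimmed (Cutadapt 1.7.1), assigned to GRCm38 transcripts by RSEM (1.2.20) and normalized in limma. The notes also name edgeR, without a version. The deposited signal is a normalized count per gene on a linear scale. How the sets were combined is not given in the sources used here, so tests were kept within a set, except the difference of effects between sets. Here, log2(value + 1) was fitted in limma 3.58.1 (R 4.3.3) with a mean for every group of the set and moderated variances with a trend. Genes under 1 in all libraries of a set were dropped, which left 13705 (set 1) and 13629 (set 2). The two-sided p were corrected by Benjamini-Hochberg per comparison. The fit was tested on simulated data.

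Groups came from the sample labels. For immobilization, the 3 days came from the paper's legend on WT muscle and its description of the gene set results of all genotypes. For denervation, they came from the title of its denervation gene list. The genes and lists were chosen with earlier results of these data known. Values by library were due for genes called with a log2 change of at least 1 (up to 15, by size), genes called between genotypes, and genes called in both directions. Cpt1a, Pnpla2, Plin2 and the ratios were added after their values were seen. Of the other lists, at most 2 genes in each direction and comparison are named, and G0s2, Fabp4 and Gpihbp1 were followed through the other comparisons after their values were seen. Adgre1, Ucp1 and 1 gene of triglyceride storage were not analysed here. Exon lengths and positions come from GENCODE M21 (GRCm38). Fabp3, Acadvl, Echs1, Etfdh and Ucp3 overlap a gene on the other strand, and the counting is not stated to use strand. The alternatives were another pseudocount (0.1), other filters, other scalings, variances without a trend, a replicate block, only the compared groups, a larger fold threshold, and each library left out. Figures were drawn with matplotlib 3.10.9.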

Additional observations from a re-analysis of the deposited data

Results flagged for a closer look

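Among the 18 genes given by library, groups of 4 were examined for a library far from the other 3, by Dixon's test of the gap against the range. Of 162 groups, 18 had such a library, and chance marks about 1 in 20 groups. Sesn1SkM-Tg basal replicate 4 was high in Fabp3 (375, others 207 to 219), Cpt1b (375, others 248 to 264), Acaa2 (166, others 95.6 to 99.1) and Eci1 (99.0, others 72.5 to 75.9). Sesn1-/- basal replicate 3 was high in Fabp3 (661, others 359.5 to 381), Acadm (463, others 379 to 393), Hadh (229, others 181 to 184) and Pdk4 (495, others 209 to 236). In set 1, WT basal replicate 4 was high in Cpt1b (535, others 262 to 308), WT basal replicate 1 was high in Scd1 (106, others 28.7 to 34.0) and WT basal replicate 2 was low in Pdk4 (708, others 1045 to 1079). Sesn2SkM-Tg basal replicate 3 was low in Acadm (276, others 318 to 319.9) and replicate 2 high in Ucp2 (13.6, others 5.83 to 7.10). In immobilized Sesn1-/- muscle, replicate 2 was low in Fabp3 (237, others 320.2 to 333), replicate 4 high in Hadh (136, others 115 to 118) and replicate 3 high in Acot13 (44.4, others 34.6 to 35.6). WT denervated replicate 2 was low in Cd36 (148, others 171 to 175), and WT immobilized replicate 1 of set 2 was low in Ucp3 (94.3, others 136 to 142).

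The effect of immobilization on WT muscle was called different between the sets, by limma's test of the difference, for Cd36 (-0.79), Acacb (0.75) and Pdk4 (1.39), as set 2 minus set 1. The share called (7.89%) was near that of all genes (6.2%). Each of the 3 calls was lost without at least 1 single library.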

How the results depend on the processing

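The 174 called changes of single genes were refitted with each library left out and under 9 other settings, 2941 fits in all. In 2725 the call and direction were the same, in 214 the direction was the same without a call, and in 2 the sign turned. Both turned with libraries scaled to the same sum, Hadhb after denervation (0.0491) and Etfa in denervated against immobilized muscle (0.0501). The number of reads is unknown, so what depth limits could not be given.

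With the fold threshold raised to a log2 change of 1, the genes called were 8 and 6 in immobilized WT muscle of sets 1 and 2, 16 after denervation, 8 in Sesn1SkM-Tg, 4 in Sesn2SkM-Tg and 7 in Sesn1-/- muscle, 7 in denervated against immobilized muscle and 1 between the sets. The shares of all genes called at that threshold or under the other settings are not given here. Scaling to the same sum gave 17 in denervated against immobilized muscle. With only the compared groups fitted, 1 gene was called in basal Sesn2SkM-Tg against WT muscle. Between the sets, 1 gene was called with quantile normalization, scaling to the same sum, eBayes without a trend, the replicate block and only the compared groups.

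Without single libraries, the genes called ranged from 14 to 21 and 25 to 27 in immobilized WT muscle of sets 1 and 2, from 32 to 33 after denervation, from 8 to 19 in Sesn1SkM-Tg, 14 to 19 in Sesn2SkM-Tg and 22 to 26 in Sesn1-/- muscle, and from 23 to 28 in denervated against immobilized muscle. They ranged from 1 to 2 in basal Sesn2SkM-Tg against WT muscle, from 0 to 1 in immobilized Sesn2SkM-Tg and Sesn1-/- against WT muscle and from 0 to 4 between the sets. Of the genes called, 14 of 19 and 24 of 27 (WT, sets 1 and 2), 32 of 33 (denervation), 7 of 19 (Sesn1SkM-Tg), 13 of 19 (Sesn2SkM-Tg) and 21 of 25 (Sesn1-/-) kept the call without any single library. Where 3 libraries became 2, the spread was pooled over the groups.

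In no comparison did every same-numbered pair correlate above 0.1, so replicate numbers were not treated as pairs in the main fit. Single same-numbered pairs ranged from -0.452 to 0.534. What libraries of the same number share is not stated in the sources used here. With the replicate block, the count between the sets went from 3 to 1, and Fabp3 was called in immobilized WT muscle of set 2 (-0.53, adjusted p 0.039) and Sesn1-/- muscle (-0.50, adjusted p 0.047) and Hadh in Sesn2SkM-Tg muscle (-0.56, adjusted p 0.041). Calls lost with the block were Eci1 in immobilized WT muscle of set 1 (-0.78, adjusted p 0.069), Ucp2 in set 2 (0.87, 0.064, in WT and 0.85, 0.065, in Sesn1-/- muscle), Acaa2 (-0.83, 0.065) and Ppard (-0.41, 0.075) in Sesn1SkM-Tg muscle, Acacb (0.28, 0.052) and Ucp2 (-0.89, 0.051) in denervated against immobilized muscle, and Cd36 (-0.79, 0.069) and Pdk4 (1.33, 0.066) between the sets.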
